A study of Homo sapiens with 46 samples.

Results

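The RNA compared here came from ectoderm cells made in culture from the H1 line, an established human pluripotent stem cell line. Cytoplasm libraries 1 to 3 were set against nucleus libraries 1 to 3, so the comparison holds 6 of the 46 libraries of the series. It was made on the transcript assembly built for ectoderm. All assembled transcripts that carried one Ensembl gene ID were summed, which gave 17713 genes from 54325 transcripts, and 15655 of these genes had enough counts to be tested.

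Per the labels, ectoderm was obtained by keeping the cells for 5 days in DMEM/F12 with 15% KOSR (a serum replacement) and 3 small molecules at 2 µM each. These were A83-01, PNU-74654 and dorsomorphin, used as inhibitors of TGF-beta/activin receptors, of beta-catenin signalling and of BMP receptors. Cells were opened in a buffer with 0.05% NP-40, a mild detergent, and 25 µM α-amanitin, which blocks RNA polymerase II. The lysate was layered over 25% sucrose and spun at 2000 rpm for 10 min. The liquid above the pellet was the cytoplasm, part of the pelleted nuclei gave the nucleus libraries, and the rest was split further into nucleoplasm and chromatin. Total RNA was sequenced in each fraction, with 3 repeats. All groups share the line and the buffer, and the labels name no separate cultures, so p-values measure the spread between these libraries, which may be technical.

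As background, most messenger RNAs are translated on free ribosomes in the cytosol, whereas those for secreted and membrane proteins are carried to the endoplasmic reticulum (ER). The signal recognition particle binds the hydrophobic signal peptide or membrane segment as it leaves the ribosome, and the ribosome then docks on the ER membrane. The ER is continuous with the outer membrane of the nucleus, and a mild detergent can leave part of it with the nuclei. Long noncoding RNAs such as MALAT1 and NEAT1 are known to stay in the nucleus, and mitochondrial transcripts stay inside mitochondria.

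The 6 libraries held between 7738946 counts (nucleus replicate 1) and 21298678 counts (nucleus replicate 2). Pearson's r of log2 CPM (counts as a share of the library, after scaling) across genes was 0.980 to 0.981 between cytoplasm libraries and 0.947 to 0.971 between nucleus libraries. Nucleus replicate 2 stood furthest from the others. Between 0.277% and 8.67% of a library's counts lay in transcripts of no Ensembl gene and were left out. Of the 16 neuroectoderm markers listed, 15 were in the table and 14 had a median above 1 TPM (a level per length) over the 6 libraries. Of the 8 endoderm markers 0 were found in the table, and the highest of the 4 mesoderm markers in it had a median of 3.21 TPM. Of the 15 markers of neural crest and surface ectoderm 11 were in the table, all 11 with a median above 1 TPM. The keratin KRT8 among them, at a median of 749 TPM, lay above every neuroectoderm marker, of which SOX2 was highest at 236 TPM. Of the 7 markers of undifferentiated cells 6 were in the table and 5 had a median above 1 TPM. LIN28A, which early neural cells also express, had 647 TPM, DPPA4 60.0, ZFP42 19.2, L1TD1 8.33, POU5F1 7.31 and TDGF1 0, and NANOG was not found in the table.

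In the count tables the columns taken as nucleus carry the code Nei, which no label explains. They were matched to the nucleus samples because the codes for cytoplasm, nucleoplasm and chromatin left no other fraction, so each value given for nucleus rests on that reading. The nuclear and cytoplasmic control genes, as fitted, did not follow the fraction labels. MALAT1, a nuclear speckle RNA, had 341, 50.4 and 198 CPM in the nucleus libraries and 2081, 1219 and 1702 CPM in the cytoplasm libraries. All 3 cytoplasm libraries lay above all 3 nucleus libraries. The log2 change, cytoplasm over nucleus, was 3.09 (SE 0.49, adjusted p = 0.00017, edgeR quasi-likelihood test with Benjamini-Hochberg adjustment over all genes, as for every adjusted p below unless another test is named). In nucleoplasm MALAT1 had 2132, 1737 and 2154 CPM and in chromatin 614, 809 and 491 CPM, all above the nucleus libraries. NEAT1, the paraspeckle RNA, had 7.84, 3.52 and 7.84 CPM in nucleus and 39.0, 37.0 and 37.2 CPM in cytoplasm. Of the 6 nuclear controls 5 were higher in cytoplasm, and TUG1, at a log2 change of 0.23 (adjusted p = 0.24), was not called. Of all genes 28.8% were called higher in cytoplasm. With the GC offset described below, 2 of the 6 were higher in cytoplasm and 0 in nucleus, and their median went from 1.07 to -0.01.

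Of 8 cytoplasmic controls 0 were higher in cytoplasm and 3 were higher in nucleus. RPLP0, a protein of the ribosomal stalk, had 5131, 9940 and 5730 CPM in nucleus and 4027, 4652 and 4250 CPM in cytoplasm. Its log2 change was -0.69 (SE 0.21, adjusted p = 0.013). ACTB, cytoplasmic actin, and TUBA1B, an alpha-tubulin, had log2 changes of -0.48 and -0.51 (adjusted p = 0.035 for each). The other controls were GAPDH, TPT1, RPS3, EEF1A1 and PPIA, with log2 changes between -0.40 and 0.04, and none of them was called. Without nucleus replicate 2, 2 of the 8 were higher in cytoplasm and 1 in nucleus, where 27.5% and 20.4% of all genes were (47.9% in either direction). Scaling on total counts gave 2 and 0. The names cytoplasm and nucleus below stand for the libraries so labelled, by that reading of the columns.

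All 13 mitochondrially encoded messenger RNAs were lower in cytoplasm, with log2 changes from -4.08 to -2.47. MT-CO1, a core subunit of cytochrome oxidase, had 35282, 56611 and 43723 CPM in nucleus and 5058, 3894 and 5362 CPM in cytoplasm. This was a log2 change of -3.24 (SE 0.23, adjusted p = 1.5e-07). MT-ATP6, a subunit of the ATP synthase, fell by 4.08 (SE 0.32, adjusted p = 3.5e-07), and the ribosomal RNAs MT-RNR1 and MT-RNR2 fell by 2.90 and 2.78 on the log2 scale. Counts of MT-ATP8 and MT-ND4L are uncertain, because they overlap MT-ATP6 and MT-ND4 on the mitochondrial genome. Mitochondrial genes gave 8.20% to 10.3% of the counts in nucleus, 8.43% to 10.2% in nucleoplasm, 2.04% to 2.72% in chromatin and 1.03% to 1.59% in cytoplasm. In bulk libraries a share that rises in one fraction cannot be told apart from other RNA that falls there, nor fewer cells from less RNA per cell.

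Over all 15655 genes, 4501 (28.8%) were called higher in cytoplasm and 3881 (24.8%) higher in nucleus, 53.5% in all, at an adjusted p under 0.05. The median change of all genes was 0.03, the median of the calls was 1.03 in one direction and -0.71 in the other, and the median SE of a call was 0.17. A change of at least 2-fold was held by 2334 of the genes called higher in cytoplasm and 1228 of those called higher in nucleus. Cytoplasm and nucleus libraries did not overlap for 30.7% of genes in the direction of cytoplasm and 27% in the direction of nucleus. The balance depended on the scaling: 53.7% of calls were higher in cytoplasm, but 78% with scaling on total counts, which moved the median by 0.35, and 75.6% with log2(TPM + 1), which moved it by 0.13. DESeq2 gave 50.2%.

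**Figure D1:**
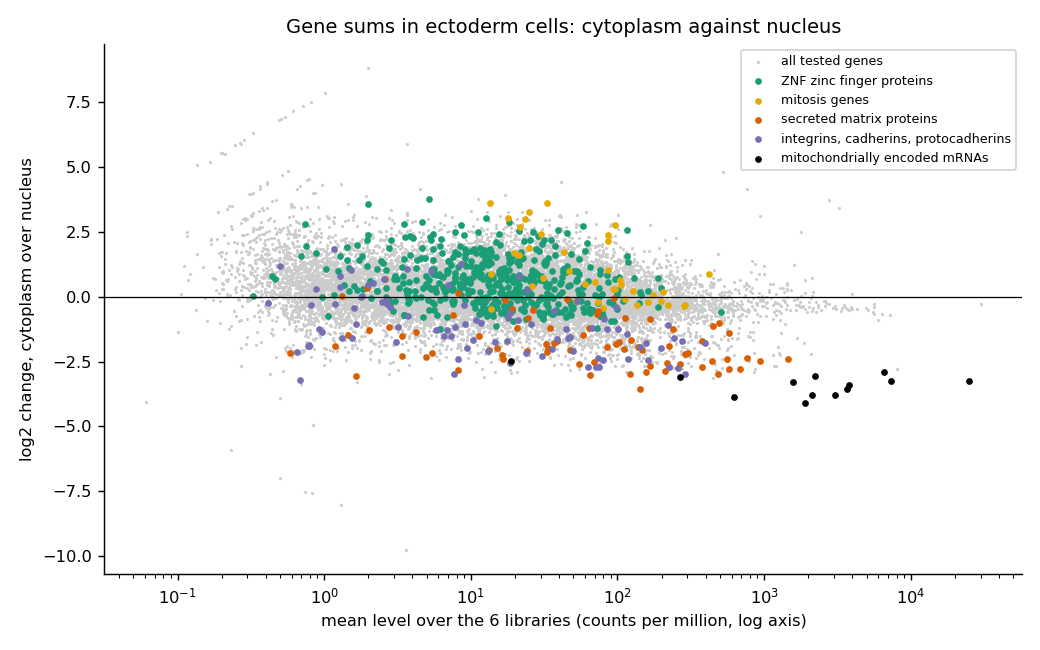
Log2 change in gene sums, cytoplasm over nucleus (vertical axis), against the mean level over the 6 libraries in CPM (horizontal log axis), 1 point per tested gene, with chosen gene lists in colour. Matrix genes lie below 0 with a median of -1.95 and mitochondrial messenger RNAs with a median of -3.27, while the median of all genes is 0.03.

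Apart from the mitochondrial genes, the lists with the largest shares of members higher in nucleus hold genes for secreted, membrane and ER proteins. Among genes of the extracellular matrix, 71 of 78 tested members were higher in nucleus and 0 were higher in cytoplasm, with a median log2 change of -1.95. This compares with 24.8% of all genes called higher in nucleus. The summed level of the matrix list ran from 19862 to 22405 CPM in nucleus and from 4797 to 5079 CPM in cytoplasm, so the groups did not overlap. TNC, tenascin C, a glycoprotein of embryonic matrix (chr9:115019578-115118257, minus strand, GRCh38), had 218, 294 and 276 CPM in nucleus and 22.9, 20.8 and 22.7 CPM in cytoplasm. It was 11.9-fold higher in nucleus by the means. The log2 change of -3.57 (SE 0.17, adjusted p = 1.2e-08) was the largest fall among genes encoded in the nuclear genome that met the naming rule.

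Other matrix genes moved the same way at high levels. GPC3, a heparan sulphate proteoglycan anchored to the cell surface (chrX:133535745-133985895, minus strand), had 2186, 2852 and 2265 CPM in nucleus and 492, 417 and 478 CPM in cytoplasm. FBN2, fibrillin 2 of elastic microfibrils (chr5:128257909-128659185, minus strand), had 1588, 1524 and 1650 CPM against 304, 274 and 267 CPM. AGRN, the proteoglycan agrin of basement membranes, had 1238, 1371 and 1252 CPM against 250.0, 243 and 265 CPM. For each gene the 3 nucleus libraries lay well above every cytoplasm library, with log2 changes of -2.40, -2.49 and -2.35 (SE 0.13 to 0.16). By symbol alone, 26 of 30 tested COL collagen genes were higher in nucleus and 0 in cytoplasm.

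Cell adhesion molecules followed, with 63 of 92 integrins, cadherins and relatives higher in nucleus, 4 higher in cytoplasm and a median of -1.26. CDH1, E-cadherin of epithelial junctions (chr16:68737225-68835548, plus strand), had 510, 463 and 555 CPM in nucleus and 71.2, 58.0 and 65.8 CPM in cytoplasm. Its log2 change was -2.97 (SE 0.14, adjusted p = 1.2e-08). PCDH18, a protocadherin, and FAT1, a giant cadherin, changed by -1.79 and -1.71 (SE 0.12 and 0.13). ITGAE, an integrin alpha chain, went the other way, from 15.2, 14.9 and 16.9 CPM to 26.0, 23.4 and 31.2 CPM, a log2 change of 0.78 (SE 0.14, adjusted p = 0.00049).

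Cell surface receptors of signalling pathways gave 68 of 89 members higher in nucleus and 1 higher in cytoplasm, with a median of -1.28. PTPRF, a receptor tyrosine phosphatase, had 1853, 2199 and 2175 CPM in nucleus and 338, 319 and 325 CPM in cytoplasm. Its log2 change was -2.67 (SE 0.15, adjusted p = 1.6e-08). The related PTPRS changed by -1.53 (SE 0.13), and the Wnt receptor FZD5 by -0.77 (SE 0.14). The member called higher in cytoplasm was FZD3, another Wnt receptor, at 0.64 (SE 0.26, adjusted p = 0.049). FZD3 has a GC content of 34.9%, and its change was -1.38 with the GC offset described below. Of 18 SEMA genes, which encode semaphorin guidance cues, 15 were higher in nucleus.

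Transporters leaned the same way, with a spread that reached the other side. Of 192 solute carriers (SLC genes other than SLC25), 115 were higher in nucleus and 19 higher in cytoplasm, with a median of -0.75. The glucose transporter SLC2A1 had 1120, 1558 and 1242 CPM in nucleus and 275, 259 and 252 CPM in cytoplasm. The neuronal type glucose transporter SLC2A3 changed by -1.92 (SE 0.13), the choline transporter-like SLC44A2 by -1.63 (SE 0.11) and the cationic amino acid transporter SLC7A3 by -2.34 (SE 0.15). SLCO1A2, an organic anion transporter, had 20.0, 3.18 and 15.6 CPM in nucleus and 55.8, 43.9 and 44.4 CPM in cytoplasm, the largest called rise among transporters with a mean of at least 10 CPM. Of 32 ion pumps 15 were higher in nucleus and 4 in cytoplasm. ATP2A2, the calcium pump of the ER, changed by -1.52 (SE 0.10), whereas ATP6V1C1, a cytosolic subunit of the vacuolar proton pump, changed by 1.47 (SE 0.21). Of 163 TMEM genes, named for a transmembrane segment, 69 were higher in nucleus and 28 in cytoplasm, with a median of -0.30. That balance moved with the scaling, as did that of all genes. On total counts 35 TMEM genes were higher in nucleus and 40 in cytoplasm (median 0.06). Over all genes these counts were 1826 and 6481 (median 0.38). With log2(TPM + 1) TMEM genes gave 24 and 24, and all genes 1302 and 4032 (median 0.17).

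The machinery of the ER itself showed 27 of 47 members higher in nucleus, 5 higher in cytoplasm and a median of -0.84. HSPA5, the chaperone BiP, had 2040, 2004 and 1989 CPM in nucleus and 359, 274 and 314 CPM in cytoplasm. That was a 6.37-fold difference of the means and a log2 change of -2.67 (SE 0.14, adjusted p = 1.2e-08). PDIA4, a disulphide isomerase, changed by -2.82 (SE 0.15), the lectin chaperone CALR by -2.26 (SE 0.15) and the collagen chaperone SERPINH1 by -2.16 (SE 0.14). UGGT2, a glucosyltransferase that checks glycoprotein folding, was at 0.66 (SE 0.26, adjusted p = 0.047), and at -0.49 with the GC offset. Of enzymes that act on glycans, 3 symbol groups picked after their values were seen also leaned to nucleus. Higher there were 10 of 12 CHST sulphotransferases, 10 of 16 GALNT genes and 8 of 10 genes whose symbol is MAN and a digit. ALG genes, which also act on glycans, leaned less, with 6 of 14 higher in nucleus and 3 in cytoplasm. Of all genes 24.8% were higher in nucleus and 28.8% in cytoplasm.

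Within the pathway that targets proteins to the ER, both receptor subunits were higher in nucleus, while of the 6 soluble proteins of the particle 4 were higher in cytoplasm and 1 in nucleus. SRP9, a soluble protein of the signal recognition particle, had 126, 83.0 and 108 CPM in nucleus and 372, 292 and 310 CPM in cytoplasm, a log2 change of 1.62 (SE 0.15, adjusted p = 1.7e-06). SRPRA and SRPRB, the receptor subunits at the ER membrane, changed by -1.02 (SE 0.10) and -1.36 (SE 0.13). The direction of SRP9 held with the GC offset, at 0.23, but the call did not (adjusted p = 0.088). Of these 8 genes 4 were higher in cytoplasm and 3 in nucleus as fitted, and 2 and 3 with the offset. Their median went from 0.33 to -0.22. Of all genes 28.8% and 24.8% were called in these directions, and 18.7% and 22.8% with the offset. Cholesterol genes were found on both sides. DHCR7, a membrane enzyme of the last step, had 277, 433 and 327 CPM in nucleus and 73.1, 78.6 and 79.2 CPM in cytoplasm, a change of -2.17 (SE 0.19, adjusted p = 7.7e-07). IDI1, a soluble isomerase of the pathway, changed by 1.64 (SE 0.14). In the whole list 11 of 21 members were higher in nucleus and 3 in cytoplasm. Membrane enzymes did not all lie on one side of the soluble ones: the soluble MVK and MVD were called higher in nucleus and the membrane enzyme HSD17B7 higher in cytoplasm (3 genes chosen after their values were seen).

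Nuclear pore genes were found on both sides, and the 2 named here are the largest fall and the largest rise of the list. NUP210, a membrane-spanning nucleoporin with a signal peptide, had 282, 354 and 319 CPM in nucleus and 55.0, 54.7 and 53.9 CPM in cytoplasm, a log2 change of -2.54 (SE 0.15, adjusted p = 1.9e-08). TPR, a coiled-coil protein of the nuclear basket, had 29.5, 12.4 and 21.0 CPM in nucleus and 188, 184 and 170.0 CPM in cytoplasm, a change of 3.14 (SE 0.34, adjusted p = 6.6e-06). In the list of 30 nucleoporins, 10 (33.3%) were higher in each fraction and the median was -0.14. Of all genes 28.8% were higher in cytoplasm and 24.8% in nucleus. With the GC offset 5 nucleoporins were higher in cytoplasm and 9 in nucleus. On total counts 13 and 3 were, where 6481 and 1826 of all genes were.

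**Figure D2:**
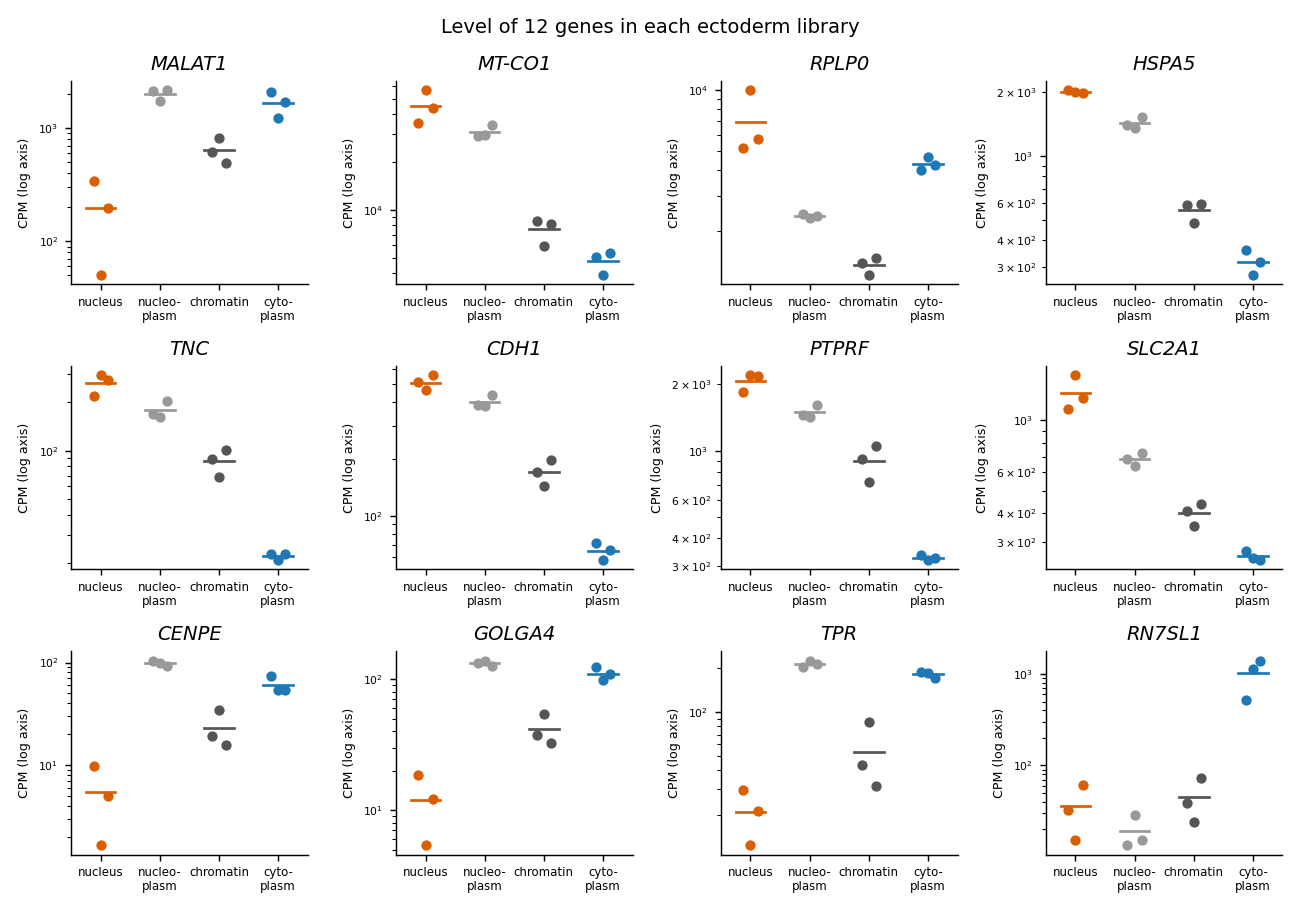
Level of 12 genes in CPM (log axis) in each ectoderm library of the nucleus, nucleoplasm, chromatin and cytoplasm fractions, 1 point per library and a line at the mean of 3. TNC, CDH1, PTPRF, SLC2A1 and HSPA5 are highest in nucleus and lowest in cytoplasm, while CENPE, GOLGA4, TPR and MALAT1 lie lowest in nucleus and stand near each other in nucleoplasm and cytoplasm.

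Signal peptides and membrane segments are stretches of hydrophobic residues. In the genetic code every codon with T as its middle base encodes a hydrophobic residue, so such stretches can be followed in the DNA. The first 90 coding bases are printed for 4 genes higher in nucleus and 3 higher in cytoplasm, 5′ to 3′, from the GENCODE release 29 transcript with the longest coding sequence (GRCh38). Capitals mark codons with T in the middle. The first 4 show what precedes a secreted or surface protein:
TNC: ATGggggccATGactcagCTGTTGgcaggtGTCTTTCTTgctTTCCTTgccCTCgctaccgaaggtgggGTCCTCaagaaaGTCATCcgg
FBN2: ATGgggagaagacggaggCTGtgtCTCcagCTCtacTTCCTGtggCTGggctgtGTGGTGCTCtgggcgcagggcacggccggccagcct
GPC3: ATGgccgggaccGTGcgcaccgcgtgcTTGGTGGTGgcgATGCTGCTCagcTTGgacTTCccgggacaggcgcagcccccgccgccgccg
CDH1: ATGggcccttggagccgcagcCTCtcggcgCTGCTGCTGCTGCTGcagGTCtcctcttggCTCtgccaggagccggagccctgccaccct
The other 3, from genes higher in cytoplasm, show the starts of proteins that are not made at the ER:
SGO2: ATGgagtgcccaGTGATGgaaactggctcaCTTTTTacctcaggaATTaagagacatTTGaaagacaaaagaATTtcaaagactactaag
KIF18A: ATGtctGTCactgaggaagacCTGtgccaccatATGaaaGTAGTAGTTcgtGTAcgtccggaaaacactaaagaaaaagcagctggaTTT
CENPE: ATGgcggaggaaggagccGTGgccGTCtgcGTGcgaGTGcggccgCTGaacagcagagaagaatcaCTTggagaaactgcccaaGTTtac
Of 30 codons shown, 14 in TNC, 10 in FBN2, 10 in GPC3 and 9 in CDH1 have T in the middle, against 8 in SGO2, 9 in KIF18A and 8 in CENPE. KIF18A and CDH1 do not differ in this count. The densest window of 19 codons within the first 40 held 52.6% such codons in TNC, 47.4% in FBN2 and GPC3, 42.1% in CDH1 and KIF18A, and 31.6% in SGO2 and CENPE.

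The same window was taken for 12781 tested genes with a coding sequence, a measure chosen after values of these data were known. Of the 442 genes with at least 60% such codons in the window, 52.3% were higher in nucleus and 11.5% higher in cytoplasm, with a median of -0.61. Of the 1057 genes under 20%, 27.5% were higher in nucleus and 28.5% higher in cytoplasm, with a median of -0.04. In all 12781 genes 29.4% were higher in nucleus and 28.3% higher in cytoplasm. The median window held 47.4% such codons in matrix genes and 36.8% in all genes. Across genes, which are not independent replicates, Spearman's rho between the change and this share was -0.14.

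GC content moved with the change over all genes. Across 15174 genes with a GENCODE transcript, Spearman's rho between the log2 change and the transcript's GC content was -0.63, and it was -0.59 without nucleus replicate 2. In 5 equal groups of genes by GC content, from lowest to highest, the median change was 1.03, 0.41, -0.04, -0.29 and -0.46. In the lowest group, with a median GC of 38.9%, 71.0% of genes were higher in cytoplasm and 3.36% higher in nucleus. In the highest group, with a median GC of 62.0%, 1.94% were higher in cytoplasm and 52.0% higher in nucleus. Library by library, rho between a gene's deviation from its mean over the 12 ectoderm libraries and its GC content was 0.45 to 0.54 in nucleus, -0.41 to -0.57 in nucleoplasm, -0.12 to 0.09 in chromatin and -0.19 to -0.50 in cytoplasm. Nucleus and nucleoplasm, both prepared from nuclei, thus lay on opposite sides. Whether GC content itself, or a property that goes with it, sets these changes was not tested.

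The excess of T-middle codons in genes higher in nucleus was present within each of the 5 GC groups. Among genes with at least 50% such codons in the window, 14.2%, 37.8%, 57.1%, 63.4% and 69.2% were higher in nucleus, from the lowest GC group to the highest. Among genes under 30%, the shares were 1.74%, 8.32%, 19.9%, 38.6% and 49.0%. These shares are a description and carry no test, since genes share libraries.

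**Figure D3:**
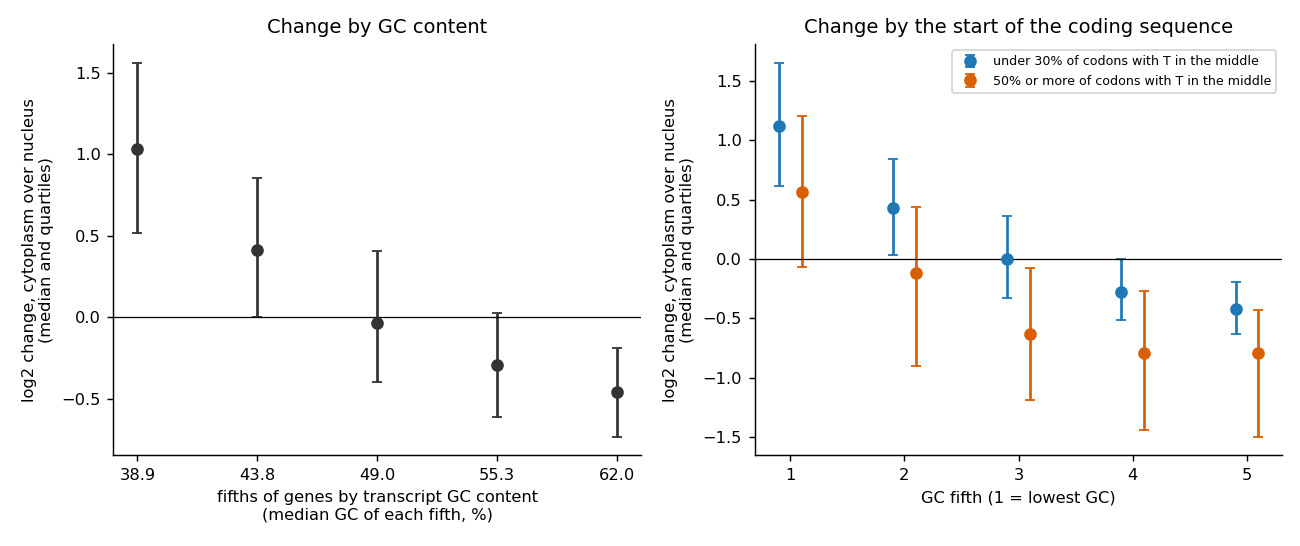
Left, median log2 change, cytoplasm over nucleus, with quartiles as bars, in 5 equal groups of 15174 genes by transcript GC content. Right, the same within each GC group for genes with under 30% (blue) or at least 50% (orange) of codons with T in the middle in the densest window of the first 40 codons. The left medians fall from 1.03 to -0.46, and the orange median lies below the blue one in each group.

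To see which families keep their direction once GC content is levelled, the fit was repeated with an offset per gene and library that removes the library's trend with GC content and length. With it, rho with GC was 0.04, and 2931 genes (18.7%) were higher in cytoplasm and 3570 (22.8%) higher in nucleus, 41.5% in all. Of the calls made without the offset, 4044 were made again in the same direction and 456 were called in the opposite direction. Of secreted and membrane families, 69 of 78 matrix genes, 75 of 89 receptors, 59 of 92 adhesion genes and 116 of 192 solute carriers were higher in nucleus. Solute carriers higher in cytoplasm went from 19 to 8. ER genes went from 27 to 39 of 47 higher in nucleus and from 5 to 0 higher in cytoplasm, with a median of -1.12 in place of -0.84. TMEM genes went from 69 to 82 of 163 higher in nucleus, and from 28 to 6 higher in cytoplasm. With the offset HSPA5 went from -2.67 to -2.79, CDH1 from -2.97 to -2.82 and GPC3 from -2.40 to -2.50, whereas TNC moved more, going from -3.57 to -2.97.

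Among the 10 genes with the largest rise that met the naming rule, SGO2, KIF18A and CENPE act in mitosis. In the mitosis list 26 of 40 members were higher in cytoplasm and 2 higher in nucleus, with a median of 0.61, beside 28.8% of all genes called higher in cytoplasm. With the GC offset the counts were 16 and 6, and the median was 0.11. The median GC content of the list was 42.6%. SGO2, shugoshin 2, which protects centromeric cohesion (chr2:200510008-200583782, plus strand), had 3.63, 1.11 and 2.12 CPM in nucleus and 37.7, 28.8 and 28.6 CPM in cytoplasm. Its log2 change was 3.92 (SE 0.32, adjusted p = 5.1e-07) and 2.31 with the offset.

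CENPE, a kinetochore motor (chr4:103105806-103198409, minus strand), had 9.87, 1.66 and 5.06 CPM in nucleus and 74.1, 53.6 and 54.4 CPM in cytoplasm. Its change of 3.59 (SE 0.43, adjusted p = 1.7e-05) was 2.03 with the offset. Its nucleoplasm libraries, at 105, 98.0 and 92.5 CPM, lay above those of both fractions compared. KIF18A, a kinesin that trims spindle microtubules (chr11:28020620-28108308, minus strand), had 4.64, 1.04 and 1.32 CPM against 29.1, 22.6 and 22.2 CPM. The change was 3.62 (SE 0.40, adjusted p = 8.2e-06) and 2.35 with the offset. In all 3 genes the lowest nucleus value was that of replicate 2. TPX2 and KIF4A, a spindle assembly factor and a chromosome-arm kinesin, were the 2 members of the list higher in nucleus, at -0.36 (SE 0.11) and -0.44 (SE 0.11).

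GOLGA4, a coiled-coil golgin on the outside of the Golgi (chr3:37243177-37366751, plus strand), had 18.4, 5.39 and 12.2 CPM in nucleus and 123, 99.0 and 109 CPM in cytoplasm. Its log2 change was 3.26 (SE 0.32, adjusted p = 2.3e-06) and 2.36 with the offset. By symbol, 6 of 12 GOLGA genes and 26 of 38 CEP genes, which encode centrosomal proteins, were higher in cytoplasm, with 0 and 3 higher in nucleus. With the offset 7 GOLGA and 24 CEP genes were higher in cytoplasm, and 0 and 2 in nucleus. Of all genes 28.8% were higher in cytoplasm, and 18.7% with the offset. These 2 symbol groups were picked after their values were seen. ANKRD12, an ankyrin repeat cofactor, and ZEB1, a zinc finger repressor, rose by 3.75 (SE 0.49) and 3.29 (SE 0.50).

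Among genes that met the naming rule, the 3 largest rises were those of RN7SL1, RGPD6 and RN7SL2, which have near-identical copies, so their counts are uncertain. RN7SL1, the RNA of the signal recognition particle (chr14:49586580-49586878, plus strand), had 32.2, 15.4 and 61.5 CPM in nucleus and 516, 1122 and 1404 CPM in cytoplasm. This was a log2 change of 4.80 (SE 0.57, adjusted p = 1.6e-05), and its near copy RN7SL2 changed by 4.14 (SE 0.44). RGPD6, a member of a recent gene family, had 14.8, 0 and 0 CPM against 64.6, 84.4 and 83.6 CPM. The 7SK RNA, which restrains transcription elongation in the nucleus, had 1.74, 2.07 and 3.37 CPM in nucleus and 12.8, 8.21 and 49.7 CPM in cytoplasm, with cytoplasm replicate 3 far above the other libraries. In all, 14 of 29 small structural RNAs were higher in cytoplasm and 0 in nucleus, and 7 and 4 with the GC offset.

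Zinc finger genes of the ZNF series formed the longest list. Of 470 ZNF genes 232 were higher in cytoplasm and 67 higher in nucleus, with a median of 0.54 and a median GC content of 43.3%. With the offset the counts were 136 and 51, and the median was 0.13. ZNF138 had 3.34, 1.38 and 3.88 CPM in nucleus and 27.2, 17.2 and 23.7 CPM in cytoplasm, a change of 3.02 (SE 0.32, adjusted p = 5.3e-06). ZNF646, whose GC content is 60.8%, changed by -1.22 (SE 0.15).

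Genes for factors that act in splicing and chromatin had more members higher in cytoplasm than in nucleus, as had all genes (28.8% against 24.8%). Of 12 SR splicing proteins 7 (58.3%) were higher in cytoplasm and 0 in nucleus, and of 23 hnRNP genes 12 (52.2%) and 3 (13.0%). SRSF11 changed by 1.39 (SE 0.21) and HNRNPH3 by 1.42 (SE 0.15). CLK1 and CLK4, kinases of SR proteins, changed by 1.44 (SE 0.17) and 2.13 (SE 0.26). With the offset SR proteins gave 3 and 2, and hnRNP genes 10 and 4, where 18.7% and 22.8% of all genes were called. Of 78 chromatin enzymes 29 (37.2%) were higher in cytoplasm and 19 (24.4%) in nucleus, the last share near that of all genes. These counts became 37 and 8 with the offset, 39 and 6 on total counts and 27 and 2 with log2(TPM + 1). CHD4, a remodeller, had 1181, 1239 and 1181 CPM in nucleus and 588, 654 and 602 CPM in cytoplasm, whereas ATRX, another remodeller, had 19.9, 6.56 and 16.6 CPM and 99.8, 82.7 and 89.4 CPM. Their GC contents are 51.5% and 36.8%, and with the offset ATRX changed by 0.99 in place of 2.70.

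Few long noncoding genes were called higher in nucleus, while their shares called higher in cytoplasm lay on either side of that of all genes. Of 605 lincRNA genes 208 (34.4%) were higher in cytoplasm and 13 (2.15%) higher in nucleus. Of 557 antisense genes 143 (25.7%) and 16 (2.87%) were, beside 28.8% and 24.8% of all genes. Protein-coding genes gave 3649 and 3788 of 12916. With the offset lincRNA genes gave 90 and 49 and antisense genes 66 and 33, where 18.7% and 22.8% of all genes were called. LINC01572 had 11.2, 3.18 and 6.08 CPM in nucleus and 29.5, 27.7 and 25.9 CPM in cytoplasm, a change of 2.12 (SE 0.29, adjusted p = 5.9e-05). LINC00685 went the other way, from 28.6, 36.6 and 26.3 CPM to 7.03, 7.79 and 10.4 CPM, a change of -1.86 (SE 0.17, adjusted p = 1.8e-06). VASH1-AS1 changed by -1.74 (SE 0.15) and FEZF1-AS1 by 0.34 (SE 0.11). Whether counting used strand is not given in the sources used here, so an antisense gene cannot be separated from its partner.

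**Figure D4:**
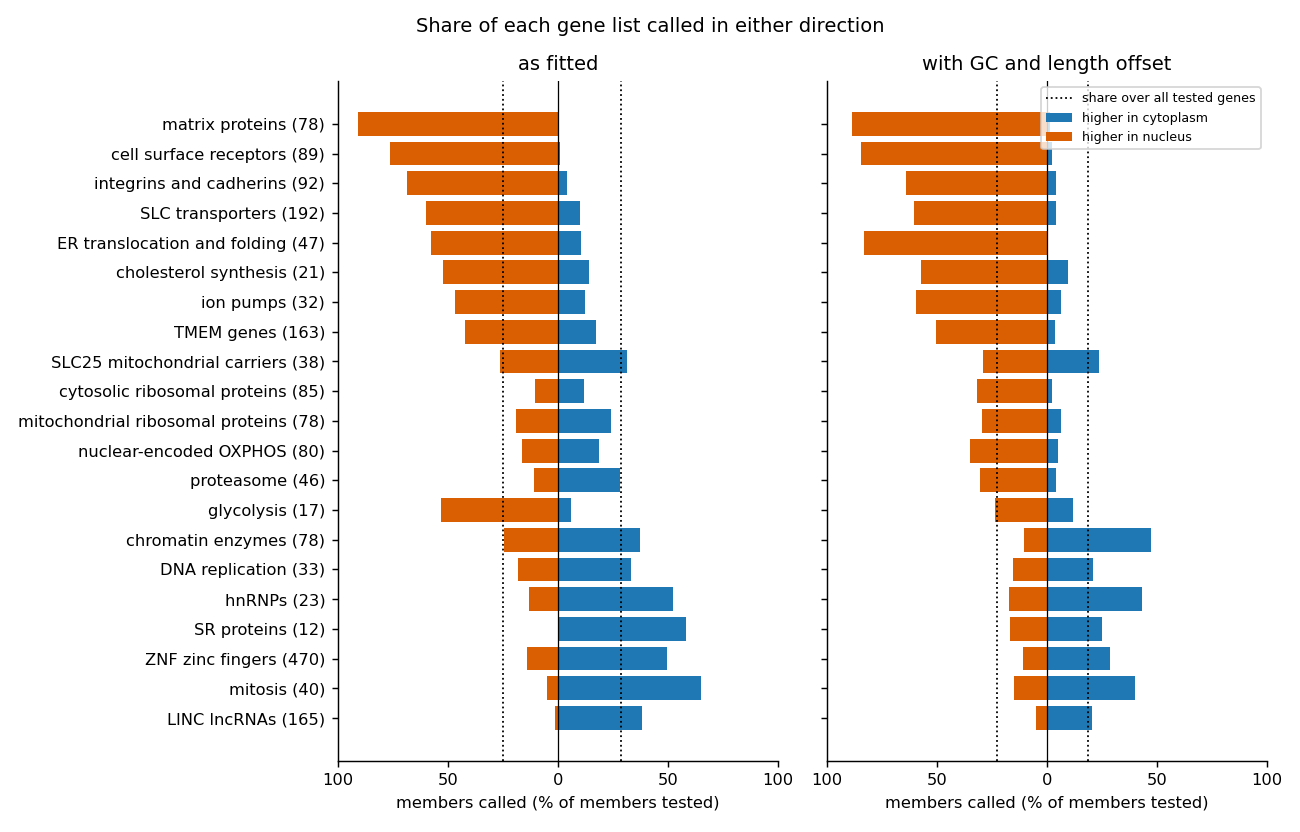
Share of tested members called higher in cytoplasm (blue, to the right) or in nucleus (orange, to the left) for 21 gene lists, with the number tested in brackets, as fitted (left panel) and with the GC and length offset (right panel). Dotted lines mark the share over all tested genes, 28.8% and 24.8% in the left panel and 18.7% and 22.8% in the right. Matrix, receptor, adhesion, transporter and ER lists reach far to the left in both panels, and the zinc finger and mitosis bars shorten in the right panel.

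For families of ribosomal, mitochondrial and proteasome proteins the counts moved with the scaling, as did those of all genes. As fitted, 28.8% of all 15655 genes were higher in cytoplasm and 24.8% in nucleus. On total counts 6481 and 1826 of all genes were, and with the GC offset 2931 and 3570. Of 85 cytosolic ribosomal protein genes 10 were higher in cytoplasm and 9 higher in nucleus, with a median of -0.16. These counts went to 33 and 0 on total counts and to 2 and 27 with the GC offset. They were 27 and 1 without nucleus replicate 2. RPS24 had 437, 571 and 508 CPM in nucleus and 1083, 1100 and 1473 CPM in cytoplasm, a change of 1.27 (SE 0.15, adjusted p = 1.7e-05) that held its direction under the offset, at 1.38. Nuclear-encoded genes of oxidative phosphorylation gave 15 and 13 of 80, mitochondrial ribosomal proteins 19 and 15 of 78, and proteasome subunits 13 and 5 of 46. These balances moved with the scaling too. On total counts they were 35 and 6, 32 and 3, and 25 and 0, and with the GC offset 4 and 28, 5 and 23, and 2 and 14, in the same order. NDUFA5, of complex I, changed by 2.35 (SE 0.21), PSMA3, of the proteasome core, by 1.93 (SE 0.11), and COX6A1, of cytochrome oxidase, by -1.12 (SE 0.15).

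SLC25 carriers, which sit in the mitochondrial inner membrane and are made in the cytosol, gave 12 of 38 higher in cytoplasm and 10 higher in nucleus, and 16 and 0 on total counts. Their shares of 31.6% and 26.3% lay near those of all genes, 28.8% and 24.8%. Their median was -0.02 and that of the other SLC genes -0.75, a difference that was not tested. Of 17 glycolytic enzymes 9 were higher in nucleus and 1 in cytoplasm, and 3 and 2 on total counts. PKM, pyruvate kinase, had 1040, 1702 and 1137 CPM in nucleus and 711, 848 and 756 CPM in cytoplasm, a change of -0.74 (SE 0.16, adjusted p = 0.0016). The median GC content of the glycolysis list was 55.0%, and with the offset 4 were higher in nucleus and 2 in cytoplasm. HSP90AA1, a cytosolic chaperone, changed by 1.16 (SE 0.19) and HSPA8, another, by -0.42 (SE 0.16).

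Genes that mark the state of the cells were found on both sides. Of 19 tested neuroectoderm genes 3 were higher in cytoplasm and 7 in nucleus, with a median of -0.05. Of all genes 28.8% and 24.8% were called in these directions. On total counts the list gave 10 and 4, and all genes 6481 and 1826. PAX6, a neuroectoderm marker, had 58.2, 51.7 and 69.5 TPM in nucleus and 114, 97.0 and 124 TPM in cytoplasm. These levels are not on the scale of the changes that follow. The median change of all genes was 0.17 with log2(TPM + 1) and 0.03 as fitted. SOX2, a neural and stem cell factor, had 581, 594 and 610 CPM in nucleus and 408, 356 and 440 CPM in cytoplasm, a change of -0.57 (SE 0.10, adjusted p = 0.00044). NES, nestin of neural progenitors, changed by -0.99 (SE 0.11), the neural cadherin CDH2 by -1.80 (SE 0.12) and the Notch ligand-like DLK1 by -0.88 (SE 0.18). KRT8, a keratin of simple epithelia, changed by -0.85 (SE 0.14), and L1TD1, an RNA-binding protein of stem cells, by 2.17 (SE 0.30).

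Single isoforms were tested in 2 ways. Against the library, 41708 transcripts were tested, of which 2933 (7.03%) were higher in cytoplasm and 2761 (6.62%) higher in nucleus, 13.7% in all. Of 15953 listed protein-coding transcripts 1697 (10.6%) were higher in cytoplasm and 2198 (13.8%) in nucleus. Of 1011 listed retained-intron transcripts 51 (5.04%) and 14 (1.38%) were. Of 559 listed transcripts marked for nonsense-mediated decay 37 (6.62%) and 10 (1.79%) were. In both of these classes each share lay below that of all transcripts. Of 20817 isoforms of an Ensembl gene without an Ensembl transcript ID, 931 (4.47%) were higher in cytoplasm and 440 (2.11%) in nucleus. The total of 5694 depended on single libraries and was 3331 without cytoplasm replicate 1 and 3687 without cytoplasm replicate 3.

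Against the rest of its gene (diffSpliceDGE of edgeR), few isoforms differed. Of 34543 isoforms in 8768 genes, 84 (0.243%) had a larger share of their gene in cytoplasm and 38 (0.11%) a larger share in nucleus. These 122 (0.353%) came from 112 genes, and 28 of them were called in each of the 6 fits that leave out a library. In 57 of those that gained in cytoplasm the nucleus libraries held 3 counts or fewer each, and in 30 of those that gained in nucleus the cytoplasm libraries did. How the authors' tool divided reads between isoforms sets these counts. The exons of isoforms without an Ensembl transcript ID are not known here.

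WTAP, a subunit of the complex that writes the m6A mark on RNA, held an isoform in each direction. Isoform ECT.9211.6 made up 24.1%, 19.3% and 25.5% of the gene's counts in nucleus and 0% in each cytoplasm library, at least 61.4-fold lower there against a floor of 3 counts per library (adjusted p = 2.9e-11). Isoform ECT.9211.2 made up 0% in each nucleus library and 20.8%, 14.7% and 15.2% in cytoplasm, at least 65.3-fold higher (adjusted p = 2.6e-09). Both carry no Ensembl transcript ID. In nucleoplasm and chromatin both were present, ECT.9211.6 at 1.56% to 37.5% and ECT.9211.2 at 9.66% to 37.9%, so each was counted in more than 1 fraction. The gene as a whole changed by 1.31 (SE 0.15).

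COL18A1, a basement membrane collagen that gives rise to endostatin, had 2 tested isoforms. ENST00000342220 (chr21:45490275-45513720, plus strand, 23 exons) made up 8.37%, 4.63% and 5.75% of the gene in nucleus and 21.5%, 27.8% and 34.6% in cytoplasm (adjusted p = 0.00033). The gene itself was much higher in nucleus, at -2.80 (SE 0.18), so this isoform was the part that fell least. MRPS6, of the mitochondrial ribosome, had isoform ECT.23208.3 at 34.3%, 38.2% and 37.2% in nucleus and 8.78%, 9.43% and 6.51% in cytoplasm (adjusted p = 0.00017). NUF2, a kinetochore protein, had the listed isoform ENST00000367900 at 0% in each nucleus library and 22.3%, 33.3% and 42.3% in cytoplasm (adjusted p = 0.00057).

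Further isoforms passed the naming rule. IARS1, an aminoacyl-tRNA synthetase, had ENST00000627121 at 0% in each nucleus library and 12.8%, 29.1% and 15.1% in cytoplasm, and MACF1, a linker of actin and microtubules, had ECT.689.3 at 0%, 0.0824% and 5.43% in nucleus and 11.4%, 14.7% and 12.9% in cytoplasm. IGSF1 isoform ECT.24703.4 gained from a mean of 1.29% to 27.0%. LAMA5 isoform ECT.23072.5 and CAPRIN1 isoform ENST00000389645 stood at 0% in each nucleus library and at means of 3.49% and 5.81% in cytoplasm. B4GALNT3 isoform ECT.14938.3 and AGPAT4 isoform ECT.9253.6 went from means of 13.7% and 7.07% in nucleus to 0% in each cytoplasm library. Adjusted p-values for these 7 lay between 9.4e-06 and 0.0037 (diffSpliceDGE).

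**Figure D5:**
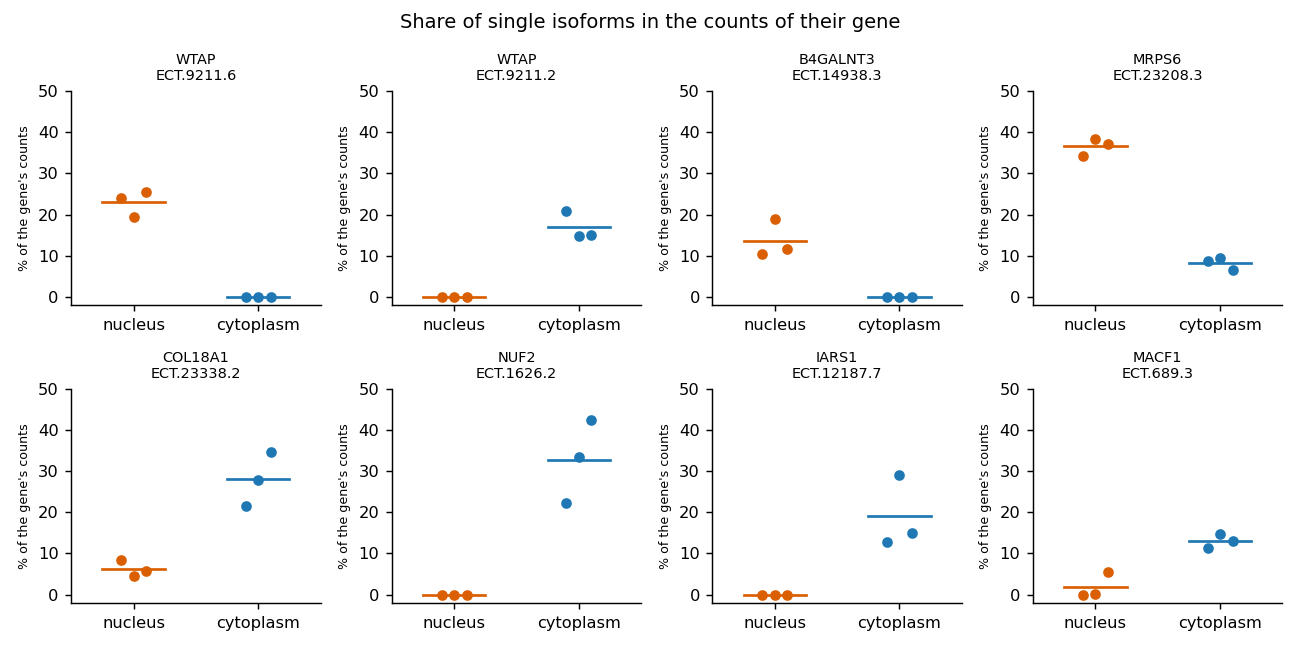
Share of 8 single isoforms in the counts of their gene, in percent, in each nucleus (orange) and cytoplasm (blue) library, with a line at the mean of 3. The 2 WTAP isoforms sit at 0 in opposite fractions, and COL18A1 ENST00000342220 (ECT.23338.2) rises from between 4.63% and 8.37% to between 21.5% and 34.6%.

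The ectoderm change was then set against the same contrast in the undifferentiated cells (hPSC), endoderm and mesoderm, in 10681 genes present in all 4 tables. All 3 differences share the ectoderm libraries, and the assembly changes with the cell type. The change differed in 5548 genes (51.9%) from hPSC, in 5488 (51.4%) from endoderm and in 6266 (58.7%) from mesoderm. It lay nearer to cytoplasm in ectoderm in 27.4%, 25.9% and 28.3% of genes, and nearer to nucleus in 24.6%, 25.5% and 30.4%. MALAT1 changed by 1.77, 3.79 and 3.91 more toward cytoplasm in ectoderm than in hPSC, endoderm and mesoderm. RPLP0 differed by -2.07, -1.40 and -3.78. Matrix genes had a median of -2.04 in ectoderm and -3.77, -4.27 and -3.18 in the others, in 61 genes, and ectoderm was called nearer to cytoplasm in 53, 56 and 43 of them. For the 85 cytosolic ribosomal protein genes the ectoderm median was -0.15 and the others were 1.49, 1.05 and 3.03, and ectoderm was called lower in 80, 69 and 83. Across the 10532 of these genes with a GC value, rho between change and GC was -0.65 in ectoderm, -0.24 in hPSC, -0.59 in endoderm and -0.13 in mesoderm.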

How the data were processed

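RNA was counted in 12 ectoderm libraries (4 fractions, 3 repeats), and 6 of them are compared here. The deposited count table holds 1 estimated count (expected count) per assembled transcript and library, in whole numbers. The deposited TPM table holds the authors' length-corrected levels, each column scaled to one total. The submitters' processing notes name RSEM, STAR and hg38, with no role or version. How the assembly was made is not given in the sources used here. There was 1 column that matched no sample, and it was not used. Counts in transcripts of no Ensembl gene (0.277% to 8.67% of a compared library) were left out.

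Counts were summed per Ensembl gene ID without its version. The 12 libraries were fitted in edgeR 4.0.16 (R 4.3.3) with TMM factors, filterByExpr at a minimum count of 10 and the two-sided quasi-likelihood test, with Benjamini-Hochberg adjustment over all genes and calls at an adjusted p under 0.05. The SE is the log2 change over the square root of F. CPM are scaled by TMM-adjusted totals. Isoforms were fitted in the same way, and against their gene with diffSpliceDGE. The differences between cell types are interaction terms in 1 fit of cytoplasm and nucleus libraries. GC content, length, gene types and coding sequences came from GENCODE release 29, which gave a GC value for 96.9% of tested genes. The offset for GC and length (loess, span 0.3) and the count of codons with T in the middle (window of 19 codons, first 40 codons) were chosen after values had been seen. The planned use of a protein table was not made, since codons were read in its place.

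The genes, the 46 gene lists and the comparisons were chosen with earlier results of these data known. Named are up to 10 genes per direction with the largest change (called, mean of at least 10 CPM, fractions without overlap, called in all 6 fits that leave out a library), all control genes and mitochondrial messenger RNAs, and of each list its 3 members of highest level and its extreme called members. Isoforms (up to 8 per direction) had to meet the same conditions on their share of the gene, except for the level. For genes the mean of at least 10 CPM was taken over the 6 libraries compared, for isoforms within nucleus or within cytoplasm. An isoform at 0 in the other fraction could thus pass. WTAP isoform ECT.9211.6 did so, with means of 11.4 CPM in nucleus and 0 CPM in cytoplasm. From the genes and isoforms named by these rules, the text gives a choice made after the values were seen.

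Alternatives were scaling on total counts or upper quartiles, DESeq2 1.42.0, no filter, the 6 libraries alone, a replicate block, leaving out each library, limma 3.58.1 on log2(TPM + 1) or log2(TPM + 0.1), the combined assembly, listed transcripts only and no mitochondrial genes. Replicate libraries were compared in 12 pairs, and chi-squared over its degrees of freedom was 3.88 or more, above counting noise. On simulated gene counts for this comparison (15415 genes), 152 of 198 genes changed 2-fold were recovered, with 8 false calls. For isoforms against their gene (32318 isoforms), 94 of 193 changed 4-fold were recovered, with 15 false calls. These draws used the same spread for all genes, changed few of them and held no GC trend. The libraries compared differ in this, so the counts may not carry over to them. Floors (3 counts) describe counting error alone, because reads copied by PCR are not separate molecules.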

Additional observations from a re-analysis of the deposited data

Results flagged for a closer look

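The change from nucleus to cytoplasm differed between ectoderm and another cell type in many genes by the test of the difference itself (edgeR interaction term, adjusted p under 0.05): 5548 genes against hPSC, 5488 against endoderm and 6266 against mesoderm. The 3 counts share the ectoderm libraries. MALAT1 lay nearer to cytoplasm in ectoderm by 1.77 against hPSC, 3.79 against endoderm and 3.91 against mesoderm on the log2 scale. RPLP0 differed the other way, by -2.07, -1.40 and -3.78 in the same order. MT-ND1 differed by 1.87 and 2.47 from hPSC and endoderm and by -6.19 from mesoderm, where mitochondrial RNA lies on the cytoplasm side. HSPA5, which is higher in nucleus in ectoderm, differed by 1.41, 2.09 and 0.77. CENPE differed by 2.20, 2.20 and 3.84. These 5 genes were picked after their values were seen, and each cell type was counted on an assembly of its own.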

How the results depend on the processing

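The 8382 genes called became 5334 with log2(TPM + 1), 5034 with log2(TPM + 1) and no filter, and 3562 where a 2-fold change was required as well, and ran from 6987 to 8857 when 1 library was left out. Genes higher in nucleus (3881) became 1826 on total counts, 1302 with log2(TPM + 1), 1328 with log2(TPM + 0.1) and 1264 with log2(TPM + 1) and no filter. Genes higher in cytoplasm (4501) became 2931 with the GC offset and 2849 with it and without nucleus replicate 2. The 5694 isoforms became 2885 in the 6 libraries alone and 10798 with DESeq2, and ran from 3331 to 6837 when 1 library was left out.

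Same-numbered cytoplasm and nucleus libraries had correlations of 0.187, 0.0695 and -0.0254. Cytoplasm replicates 1 and 2 correlated best with the nucleus library of their own number, and cytoplasm replicate 3 with nucleus replicate 2 (0.169). Correlations between deviations in groups of 3 libraries cannot show whether the numbers pair them. With the replicate block, the 122 isoforms that differed from their gene became 74 and the genes called 8031, and the 3 counts of differences were 5365, 5274 and 6052. Leaving out 1 library gave 84 to 123 of these isoforms, and 4834 to 5660, 5021 to 5348 and 5623 to 6290 genes whose change differed from hPSC, endoderm and mesoderm.

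With the GC offset the change turned sign in MAP2 (-0.68), UGGT2 (-0.49), FZD3 (-1.38), TMEM106B (-0.44), TPT1 (-0.32), PPIA (-0.25), MEG3 (-0.075), SNHG14 (-0.039) and TUG1 (-0.17). With it and without nucleus replicate 2, it turned in MAP2 (-0.36), UGGT2 (-0.50), FZD3 (-1.19), TMEM106B (-0.13), TUG1 (-0.20), KCNQ1OT1 (-0.22) and GAPDH (0.25). With log2(TPM + 1), filtered or not, RPS3 stood at 0.027, EEF1A1 at 0.033 and MT-ATP8 at 0.31, and with log2(TPM + 0.1) at 0.027, 0.033 and 1.42. On total counts EEF1A1 stood at 0.082. TPT1 stood at -0.037 with DESeq2, -0.017 with no filter, -0.010 in the 6 libraries and -0.0019 on the combined assembly. Leaving out 1 library moved TPT1 between -0.18 and 0.34 and PPIA between -0.11 and 0.33, with the highest value without nucleus replicate 2 in both. The cause was not tested. Of the values of 106 named genes, 1939 kept their direction and call, 109 lost the call, 13 gained it and 36 turned sign.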
